A study of Mus musculus with 16 samples.

Results

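The THO complex, to which THOC5 belongs, assembles on nascent transcripts and links transcription and RNA processing to mRNA export. In mouse vascular smooth muscle cells (the contractile cells of the artery wall, here in primary culture), 1866 of 28998 peaks (6.43%) of RNA recovered with THOC5 were centred on a copy of a transposable element, and these peaks are described here. A peak was taken when the repeat named by its detailed annotation was of the class LINE, SINE, LTR or DNA. The peaks came from 8 lists, 2 for each of 4 conditions. In Ctrl, wild-type cells were kept in growth medium. In Pi, wild-type cells were kept in osteogenic medium. In GFP OE, cells in osteogenic medium overexpressed GFP (the genotype is labelled wild type), and in THOC5 OE, cells in osteogenic medium overexpressed THOC5. The labels do not say how either protein was delivered or whether replicates came from separate animals, so p-values measure only the spread between these samples, which may be technical. The other 8 samples of the series are inputs and were not analysed here. The sources used here do not give whether the peaks were called against them. A peak may therefore not be corrected for how much of the transcript was present. The lists ask whether THOC5 binding to transcripts changed with osteogenic medium and with more THOC5.

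Transposable elements fill much of the introns of mouse genes and are transcribed with them. SINEs are short, non-coding elements copied by the machinery of LINEs. In the mouse they include B1, derived from the 7SL RNA and filed under the family name Alu, B2 and the older MIR, derived from tRNAs, the tRNA-like ID, and B4, a fusion of B1 and ID sequences. LINEs such as L1 carry the genes for their own copying. LTR elements are remnants of endogenous retroviruses, with ERVK and the ERVL-MaLR group as the main ones here, and DNA elements such as hAT-Charlie moved by excision and are no longer active.

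Of the 1866 peaks, 1793 (96.1%) were centred in an intron and 73 (3.91%) were intergenic, while 0 were filed in an exon, UTR, promoter or transcript end, where the annotation does not name a repeat. The transposon peaks were 11.1% of all 16769 intron and intergenic peaks. Of 21900 protein-coding genes, 4056 (18.5%) had a peak of any kind. Of 10 smooth muscle markers 5 had one, namely Acta2, Lmod1, Mylk, Smtn and Tagln. Of 5 endothelial and 4 leukocyte markers, 0 had a peak, and 1 of 4 fibroblast markers (Pdgfra) and 1 of 9 osteochondrogenic markers (Runx2) had one. Mylk, the myosin light chain kinase, was the 1 smooth muscle marker with a transposon peak. That peak lay on a MIR copy in intron 26 of 31 (chr16:34977020-34977493 in mm10) in GFP OE 1 and in both THOC5 OE lists, at percentiles of the score within the list of 2.82, 53.5 and 48.1. In Ctrl 1, Ctrl 2 and Pi 2, the peak at the same place was centred beside the copy.

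Transposons took 5.46% of peaks in Ctrl 1 (142 of 2603), 4.86% in Ctrl 2 (233 of 4795), 7.91% in Pi 1 (211 of 2666) and 5.88% in Pi 2 (223 of 3793). They took 5.77% in GFP OE 1 (214 of 3711), 8.59% in GFP OE 2 (221 of 2572), 6.41% in THOC5 OE 1 (296 of 4618) and 7.69% in THOC5 OE 2 (326 of 4240). The 2 Ctrl lists were the lowest of the 8, and the other conditions overlapped one another. The mean share was 5.16% ± 0.421 (SD, n = 2) for Ctrl, 6.9% ± 1.44 for Pi, 7.18% ± 2 for GFP OE and 7.05% ± 0.904 for THOC5 OE. Conditions held 0.434 of the variance of the share, which was not beyond the spread between lists (exact permutation over 105 pairings, p = 0.457).

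Single comparisons of 2 lists against 2 cannot go below p = 0.333 in an exact two-sided permutation test. The share was 1.74 percentage points higher in Pi than in Ctrl (exact permutation p = 0.333, the smallest possible). It was -0.13 points in THOC5 OE minus GFP OE (exact p = 1) and 0.283 points in GFP OE minus Pi (exact p = 1). Across the 4 lists with overexpression, the mean was 7.11% ± 1.27 (SD, n = 4), against 6.03% ± 1.33 (SD, n = 4) without it (difference 1.09 points, exact permutation p = 0.257, smallest possible 0.0286). The size and sign of the single comparisons rested on single lists. With 1 list left out in turn, Pi minus Ctrl ranged from 0.722 to 2.76 points, THOC5 OE minus GFP OE from -1.54 to 1.28, and GFP OE minus Pi from -1.13 to 1.7.

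The width of peaks moved with the share. Every peak of a list has the same width, from 415 to 553 bp over the lists. The 3 lists above 500 bp (Pi 1, GFP OE 2 and THOC5 OE 2, 529 to 553 bp) held 7.69% to 8.59% transposon peaks, and the 5 lists of 415 to 473 bp held 4.86% to 6.41%. Within each condition, the list with wider peaks had the higher share, by 0.596 points (Ctrl), 2.04 points (Pi), 2.83 points (GFP OE) and 1.28 points (THOC5 OE). Both Ctrl lists had narrow peaks, so among narrow lists the values were 4.86% and 5.46% for Ctrl, 5.88% for Pi, 5.77% for GFP OE, and 6.41% for THOC5 OE. The part of width in the share was not tested.

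**Figure D1:**
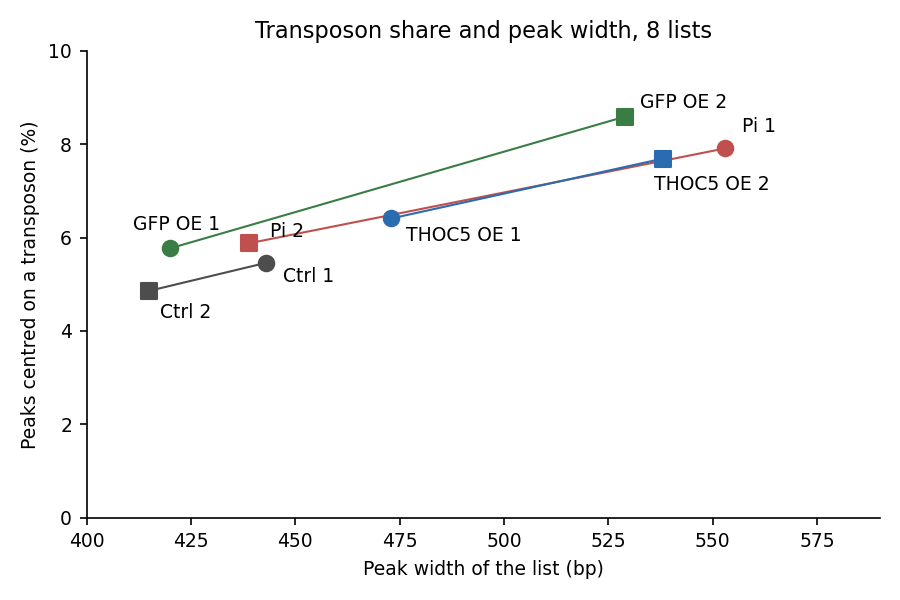
Share of peaks centred on a transposon (y axis, percent) against the single peak width of the list (x axis, bp) for the 8 lists; circles are replicate 1, squares replicate 2, and lines join the 2 lists of a condition. Every line climbs to the right, and the 3 lists with widths of 529 to 553 bp lie at 7.69% to 8.59%, above the 5 narrower lists.

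SINEs made up most of the transposon peaks. They gave 1305 peaks (69.9%), LINEs 240 (12.9%), LTR elements 225 (12.1%) and DNA elements 96 (5.14%). The copies of each class in the genome were not counted here, so a preference of THOC5 for any class or family was not tested. By family, B1 copies (Alu) gave 512 peaks, B2 382, B4 268, L1 204, ERVL-MaLR 135, MIR 90, hAT-Charlie 71, ID 53 and ERVK 51. Another 7 families had fewer than 40 peaks each, led by L2 with 32 and ERVL with 24. The peaks spread over 184 element names, of which 53 had 1 peak. The leading name was B3, a B2 relative, with 170 peaks at 82 sites, followed by RSINE1 of the B4 family with 97, B3A with 94, ID_B1 with 90 and B1_Mus1 with 84.

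SINE shares were 72.5% and 74.2% of transposon peaks for Ctrl, 71.6% and 72.6% for Pi, 72% and 70.1% for GFP OE, and 63.9% and 66.9% for THOC5 OE. Both THOC5 OE lists were below the other 6. Conditions held 0.901 of the variance (exact permutation p = 0.0476), which did not pass after adjustment over the 4 classes (adjusted p = 0.178). LINE shares went the other way in those lists, with 16.2% and 13.8% in THOC5 OE against 9.81% to 13.4% in the other 6, and did not pass either (exact p = 0.105, adjusted p = 0.178). With each list cut to its 2572 strongest peaks, the lowest adjusted p of the 4 classes in the same permutation test was 0.648. Of the 9 families with at least 40 peaks, 0 differed between conditions after Benjamini-Hochberg adjustment in the exact permutation test, and 1 had an unadjusted p below 0.05. That family was L1 (exact p = 0.019, adjusted p = 0.171), at 14.2% and 11.7% in THOC5 OE and 8.41% to 10.8% in the other lists.

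LTR elements took 6.34% and 9.44% of transposon peaks for Ctrl, 12.3% and 8.52% for Pi, 15% and 13.1% for GFP OE, and 15.5% and 12.9% for THOC5 OE. The 4 overexpression lists all lay above the 4 lists of Ctrl and Pi, with means of 14.1% and 9.16% (difference 4.97 points, exact permutation p = 0.0286, the smallest possible; adjusted over the 4 classes p = 0.114). This test of the classes was added after the values were seen, and Ctrl also differs in its medium. Of the 9 families, ERVK was the 1 with an unadjusted p below 0.05 in this grouping, with 0 and 4 peaks for Ctrl, 2 and 5 for Pi, 10 and 5 for GFP OE, and 14 and 11 for THOC5 OE. Its mean share was 3.76% with overexpression and 1.23% without (exact permutation p = 0.0286, adjusted over 9 families p = 0.257).

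The lowest score admitted to a list moved with the LTR share. It was 14.9 to 29 in the Ctrl and Pi lists and 6.31 to 12.6 in the overexpression lists, on a scale that the sources used here do not give. With only peaks at or above 29 in every list, LTR shares were 10% to 12.8% with overexpression and 6.34% to 12.9% without, and the groups overlapped (means 11.4% and 8.52%, exact permutation p = 0.143). As the scale is not given, a score of 29 may not mean the same in every list. That floor kept all 142 transposon peaks of Ctrl 1 and 178 of 296 in THOC5 OE 1. With each list cut to its 2572 strongest peaks, the means were 10.7% and 7.69% (exact p = 0.114). Above the median score of each list, the groups stayed apart, at 9.35% to 10.8% and 3.33% to 8.51% (exact permutation p = 0.0286).

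**Figure D2:**
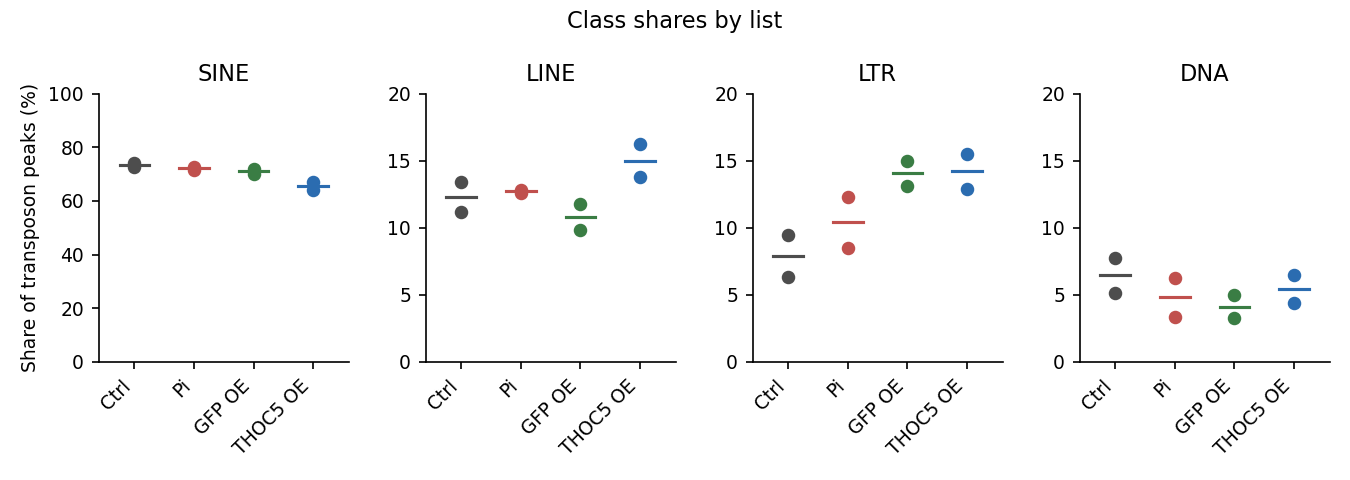
Share of transposon peaks in each class (y axis, percent; the SINE panel runs to 100%, the others to 20%) by condition, with 1 point per list and a line at the mean of 2 lists. In the LTR panel the 4 overexpression lists, from 12.9% to 15.5%, lie above the 4 others, from 6.34% to 12.3%.

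Elements of a list of 23 names taken here as young gave 323 peaks (17.3% of transposon peaks), from 14.2% to 21% per list. Most were SINEs: B1_Mus1 (84), B2_Mm2 (79), B1_Mus2 (53) and B1_Mm (35) led. Young LINE and LTR names together gave 33 peaks at 23 sites, with 0 and 4 for Ctrl, 3 and 4 for Pi, 2 and 3 for GFP OE, and 9 and 8 for THOC5 OE. The THOC5 OE lists also held the most transposon peaks (296 and 326, against 142 to 233 in the others). They admitted the lowest scores as well, down to 6.72 and 6.31. These counts were not tested between conditions. L1Md_F2 was the commonest of these names (14 peaks at 11 sites), followed by L1Md_F3 (7 peaks). IAPEz-int, the body of the IAP retrovirus that is still mobile in mice, had 2 peaks, 1 in each THOC5 OE list. They stood low, at percentiles of the score within the list of 6.66 in THOC5 OE 1 and 23.3 in THOC5 OE 2. Of the 23 young names, 11 had 0 peaks. The sources used here do not give how reads matching many copies were placed, so a peak on such a copy may hold reads of others.

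The score orders the peaks of a list by strength, and was turned into a percentile within each list. The median transposon peak stood at the 45th percentile on average over the lists, and the median of other intron and intergenic peaks at 44.2. The difference was 0.794 points ± 3.2 (SD, n = 8 lists), with 4 lists lower and 4 not (exact two-sided sign-flip permutation test, p = 0.508). The lists share many places, as 80.3% of transposon peaks on average were found in at least 1 other list. The 8 differences are therefore not independent, and sign-flip p-values here and below may be too small. Against all other peaks, exon and UTR peaks included, the difference of transposon peaks was -5.37 points (exact p = 0.0156).

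LTR and SINE peaks differed from other intron and intergenic peaks in opposite directions. LTR peaks had median percentiles of 33.5, 35.6, 37.2 and 28.1 in the Ctrl and Pi lists, in the order Ctrl 1, Ctrl 2, Pi 1 and Pi 2, and of 30.7, 40.5, 24.5 and 27.4 in GFP OE 1, GFP OE 2, THOC5 OE 1 and THOC5 OE 2. They were lower than other intron and intergenic peaks in 8 of 8 lists, by a mean of -12.1 points ± 5.54 (exact sign-flip permutation p = 0.00781, the smallest possible, and p = 0.0312 adjusted over 4 classes). Of LTR peaks, 74.7% were found in another list, so the 8 differences partly count the same copies again. With each list cut to its 2572 strongest peaks the difference was -1.85 points (adjusted exact p = 0.461; over 5 alternatives adjusted p ran from 0.0312 to 0.461). Without any 1 list other than Pi 1 the adjusted exact p was 0.0625, the lowest that 7 lists allow a class that leads alone. Of the 9 families with at least 40 peaks, ERVK stood lowest, with a median at the 17.1 percentile and 0 of 51 above the 90th.

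SINE peaks were higher than other intron and intergenic peaks in 7 of 8 lists, with Pi 1 as the exception at -2.64 points. The mean difference was 3.35 points ± 2.73 (exact sign-flip permutation p = 0.0234, adjusted p = 0.0469). The call was lost with lists cut to 2572 peaks (2.36 points, adjusted exact p = 0.156), with 1 peak a site and no exon peaks (adjusted exact p = 0.0781), and without any 1 list other than Pi 1 (adjusted exact p = 0.0625 to 0.0938; 0.0312 without Pi 1). Against all other peaks SINE peaks stood lower, at -2.82 points (adjusted exact p = 0.0312). LINE peaks (-4.61 ± 9.42, adjusted exact p = 0.271) and DNA peaks (5.77 ± 14.6, adjusted exact p = 0.281) did not pass. Among families, ID peaks had a median at the 58.3 percentile and B1 peaks at 50.4, while B2 peaks stood at 43.9 and MIR peaks at 33.4. B1 gave 36 of its 512 peaks (7.03%) above the 90th percentile, ID 7 of 53 (13.2%) and B2 4 of 382 (1.05%). Of the 10 leading names, RSINE1 had the highest median, at 66.7, and B3, the commonest, the lowest, at 38.7.

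**Figure D3:**
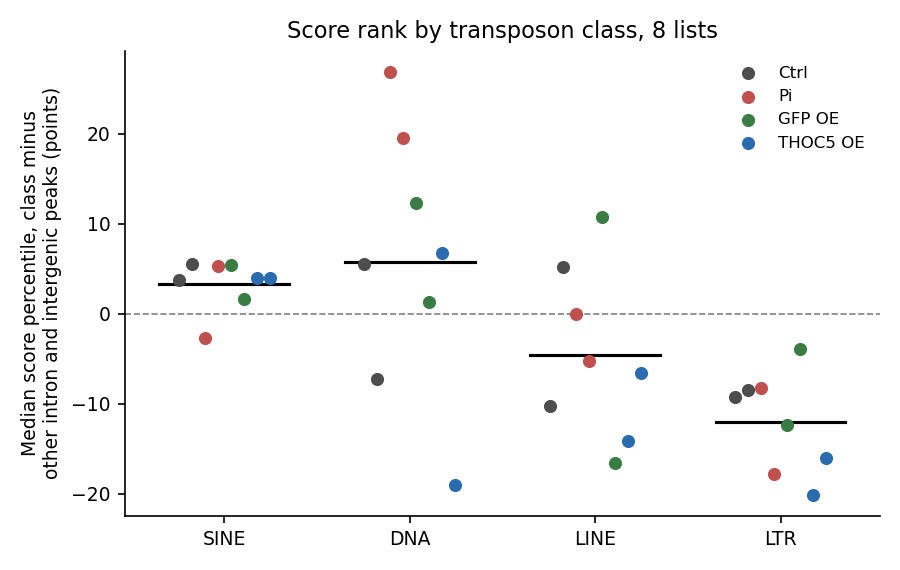
Median score percentile of a transposon class minus that of other intron and intergenic peaks of the same list (y axis, percentile points), with 1 point per list coloured by condition and a line at the mean of 8 lists. All 8 LTR points lie below 0 (mean -12.1), 7 of 8 SINE points lie above 0 (mean 3.35), and LINE and DNA points lie on both sides.

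Transposon peaks were intergenic more often than other intron and intergenic peaks. The intergenic share was 1.41% and 3.43% for Ctrl, 2.84% and 3.14% for Pi, 4.67% and 3.62% for GFP OE, and 5.07% and 5.21% for THOC5 OE. The other peaks had shares of 1.15% to 3.06%, and the transposon share was higher in 8 of 8 lists, by a mean of 1.59 points ± 1.34 (exact sign-flip permutation p = 0.00781, the smallest possible). The excess was not uniform. Other peaks stood at 1.15% in Ctrl 1, 2.75% in Pi 1 and 3.06% in Pi 2, close to the transposon peaks of those lists. Those lists had only 2, 6 and 7 intergenic transposon peaks, and the lowest difference was 0.0832 points. With lists cut to 2572 peaks the difference was 0.816 points (exact p = 0.0547). LTR peaks were intergenic in 14.7% of cases (33 of 225) and LINE peaks in 10% (24 of 240), while SINE peaks were in 1.07% (14 of 1305) and DNA peaks in 2.08% (2 of 96). The intergenic peaks lay at 45 sites. The most recurrent was an ORR1A4-int copy of ERVL-MaLR at chr13:74433108-74433528, whose nearest annotated start was that of Mir692-2. Its percentiles were 46.2 in Ctrl 1, 74.1 in Ctrl 2, 58 in Pi 1, 82 in GFP OE 1, 80.9 in GFP OE 2, 75.5 in THOC5 OE 1 and 77.6 in THOC5 OE 2. It was missing only from Pi 2.

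Within genes, transposon peaks were rare in first introns. Only 28 of 1793 intronic transposon peaks lay in intron 1, with 0% and 0.889% for Ctrl, 1.46% and 1.39% for Pi, 1.96% and 2.35% for GFP OE, and 2.14% and 1.62% for THOC5 OE. Of other intronic peaks, 5.9% to 13.3% lay there. The share was lower in 8 of 8 lists, by a mean of -8.46 points ± 2.1 (exact sign-flip permutation p = 0.00781, the smallest possible), in a comparison added after the values were seen. Among peaks more than 5000 bp from the nearest start site, the difference was 0.171 points (exact p = 0.492). Transposon peaks also had another peak in the same gene and list in 68.9% of cases, against 76% for other intron and intergenic peaks.

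Transposon peaks fell in 691 of the 4240 genes with a peak of any kind (16.3%). Of the 691 genes, 542 had 1 transposon site, 321 had such a peak in 1 list, 13 had one in every list, and 113 had no other kind of peak. Genes with a transposon peak spanned a median of 86083 bp, against 57059 bp for genes with another intron peak and no transposon peak. Vps13b, which encodes a bridge-like lipid transfer protein, led with 20 transposon peaks at 4 sites, all on LINEs, in a gene with 228 peaks in all. It had 2 to 3 in every list. Syne1, the gene of the giant nuclear envelope protein nesprin-1, had 19 transposon peaks at 8 sites among 364 peaks, and Lrba, a BEACH-domain protein of membrane traffic, had 18 at 4 sites, all on SINEs.

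Baz1a, a subunit of the ACF chromatin remodeler, had the highest share of transposon peaks of the 10 genes with the most. Of 27 peaks, 13 (48.1%) were on SINEs, from 1 to 3 per list. Taf1, the largest subunit of the general factor TFIID, had 14 of 41 (34.1%) and Smchd1, a chromatin protein of X inactivation, 11 of 34 (32.4%). Nbeal1 had 15 of 58, Ankhd1 13 of 49, Dnah7b 11 of 130 and Vps13d 11 of 147. In Dnah7b, an axonemal dynein heavy chain, 7 of 11 were on LTR copies, and per list it had 0 and 1 for Ctrl, 0 and 0 for Pi, 2 and 2 for GFP OE, and 2 and 4 for THOC5 OE.

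A list of 56 genes for silencing transposons and for editing, decay and sensing of their RNA also held genes of the THO complex and mRNA export. Of the 56, 31 had a peak of any kind (18.5% of all protein-coding genes did), Thoc1, Thoc2, Thoc3, Thoc5 and Thoc7 among them. A transposon peak was found in 3, which is 9.68% of the bound members against 16.3% of all bound genes. Smchd1 was one of the 3. Tasor, a subunit of the HUSH complex that silences young L1 copies, had a single transposon peak, on RSINE1 in intron 5 of 23 in GFP OE 1 (percentile 66.7). Kdm1a, the histone demethylase LSD1, had a single one, on B3 in intron 10 of 19 in Pi 1 (percentile 41.7).

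To follow places over lists, peaks that shared at least 1 base were joined into sites. The transposon peaks fell at 965 of 12362 sites (7.81%). Of these, 372 (38.5%) held a peak of 1 list and 23 (2.38%) held a peak of all 8, against 45.2% and 2.49% of the 6719 other intron and intergenic sites. A site counts as a transposon site once any of its peaks is centred on a copy, so a site with more peaks has more chances to be one, and these shares are not comparable. Of 593 sites in at least 2 lists, 314 (53%) had some peak centred outside the copy. At 80 sites (8.29%), another peak was centred in an exon, UTR, transcript end or promoter.

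Peak by peak, 80.3% ± 6.4 (SD, n = 8 lists) of transposon peaks were found in at least 1 other list and 44.1% in the replicate of the same condition, against 80.2% and 45.6% of other intron and intergenic peaks. Recurrence followed the score alike in both kinds: 66.8%, 85% and 92.2% of transposon peaks in the lowest, middle and highest of 3 equal parts of a list's scores, and 66.7%, 84.4% and 91.8% of the others. By class, the share found in another list was 81.8% for SINE, 80.2% for DNA, 75.4% for LINE and 74.7% for LTR, and 70.6% for ERVK. Of the peaks shared with the replicate, 77.5% ± 9.34 were centred on a transposon there too.

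**Figure D4:**
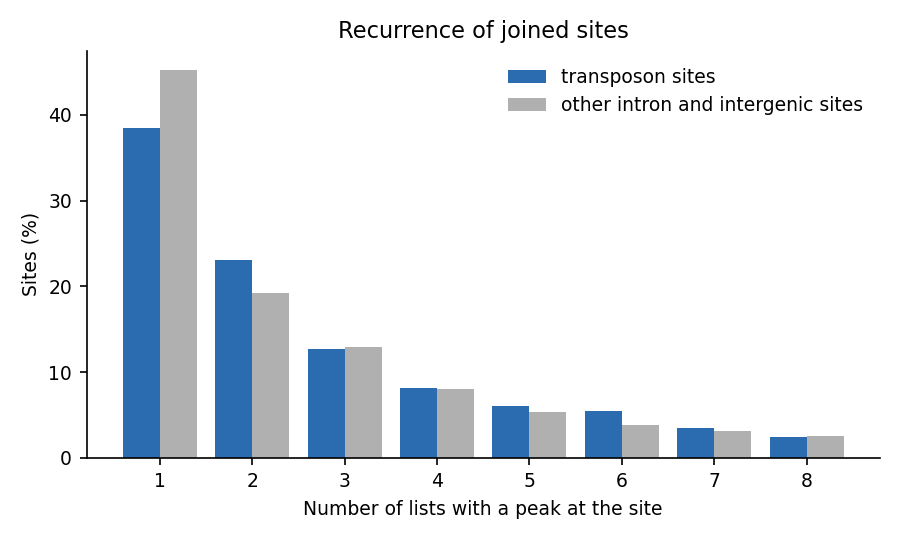
Percent of joined sites (y axis) by the number of lists with a peak at the site (x axis, 1 to 8) for 965 transposon sites and 6719 other intron and intergenic sites. In both kinds sites of 1 list are the most common (38.5% and 45.2%) and sites of all 8 lists make up 2.38% and 2.49%.

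Sites with a peak in all 8 lists were 2.62% of all 12362 sites and 2.38% of transposon sites, shares that are not comparable, as given above. Of the 23 transposon sites, 20 held a SINE and 0 an LTR element, and 9 were centred on a transposon in every list. Of all 965 transposon sites, 652 held a SINE and 127 an LTR element, and the difference was not tested. The site with the highest lowest percentile was an RSINE1 copy in intron 4 of 70 of Trrap, a scaffold of histone acetyltransferase complexes (chr5:144777274-144777803). It stood at 88.4 and 89.2 for Ctrl, 89.1 and 91.5 for Pi, 92.7 and 93.3 for GFP OE, and 93.2 and 92.3 for THOC5 OE, and was centred on the copy in all 8 lists. A B1_Mus1 copy in intron 16 of 84 of Mycbp2, an E3 ubiquitin ligase (chr14:103275962-103276377), was also centred on the copy everywhere. Its percentiles were 83.4 and 90.3 for Ctrl, 87.5 and 89.1 for Pi, 84.3 and 84.2 for GFP OE, and 87.7 and 89.2 for THOC5 OE. At Trrap the 4 overexpression lists stood above the other 4 and at Mycbp2 the conditions overlapped.

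The rest of the 10 strongest sites in every list differed in how often the copy itself was the centre. An RSINE1 copy in intron 2 of 69 of Vps13d (75.8 to 86.9), a B1_Mus1 copy in intron 19 of 54 of Nbeal1 (74.1 to 84.6) and a PB1D10 copy in intron 9 of 16 of Ubn2, a partner of the histone chaperone HIRA (71.2 to 83), were on the copy in all 8 lists. A PB1 copy in intron 56 of 145 of Syne1 was in 7 of 8 (72.4 to 85.1), and a B3 copy in intron 21 of 92 of Herc2, another E3 ligase, in 6 of 8 (69.2 to 83.1). Peaks at Brwd1 (87.5 to 94), Myo9b (87.2 to 93.9) and Ascc3 (68.2 to 79.9) were centred on the named copy (B1_Mus2, PB1D10 and L1MA8) in only 3, 2 and 3 lists. For those 3 the wider site, not the copy, was what recurred.

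**Figure D5:**
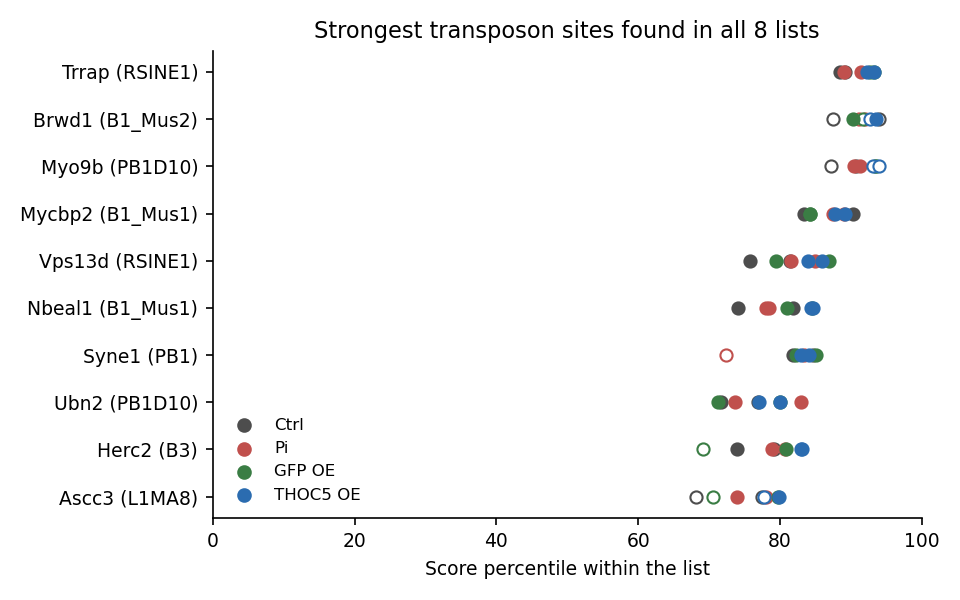
Score percentile within the list (x axis) for the 10 transposon sites with the highest lowest percentile among sites found in all 8 lists, with 1 point per list coloured by condition; filled points are peaks centred on a transposon and open points are peaks of the same site centred beside it. Trrap lies between 88.4 and 93.3 with every point filled, while Brwd1, Myo9b and Ascc3 have mostly open points.

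The highest percentiles of single transposon peaks were in 3 genes, Sf3b1, Col1a2 and Col5a2. A peak on a B1_Mur1 copy in intron 24 of 24 of Sf3b1, a core splicing factor (chr1:54987381-54987919), reached the 99.4 percentile in THOC5 OE 2. The site had a peak in 7 lists from 97.1 to 99.4, centred on the copy in 4. A peak on an ID4 copy in intron 49 of 51 of Col1a2, a chain of type I collagen, reached 99.2 in Pi 1 and was in no other list. A peak on an Lx copy of L1 in intron 53 of 53 of Col5a2, a chain of type V collagen (chr1:45376102-45376640), was in 6 lists, all 6 on the copy. It stood at 98.2 in Ctrl 1, 98.6 in Pi 1, 98.3 in Pi 2, 98.5 in GFP OE 2, 98.6 in THOC5 OE 1 and 98.9 in THOC5 OE 2.

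Sites were compared between conditions by whether they held a peak in each list of a condition and in no list of its counterpart. With 2 lists a condition these counts have no test. A site with more peaks has more chances to count as a transposon site. The shares of transposon sites and of all sites given below are therefore not comparable. Pi and not Ctrl held 12 of 643 transposon sites (1.87%), against 2.59% of all sites, and Ctrl and not Pi held 29 (4.51%), against 4.67%. Of the 12, 6 were on a transposon in both Pi lists, and of the 29, 20 were in both Ctrl lists. The Pi site with the highest lowest percentile was a B2_Mm2 copy in intron 19 of 31 of Sbno1 (chr5:124392185-124392723), at 83.9 in Pi 1 and 81 in Pi 2, where the peak was centred beside the copy. It also had peaks at 82.3 in GFP OE 2 and 85.3 in THOC5 OE 2, and none in Ctrl.

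The next were sites at a Tigger5 copy near Fbln5 (63.7 and 67.6 in Pi), a URR1B copy in Syne1 (56.9 and 68.5), a B1_Mur4 copy in Nploc4 (60.5 and 51.6) and a B3A copy in Uggt2 (26.5 and 49.8). The peak was centred beside the copy in Pi 1 near Fbln5 and in Pi 2 at Syne1 and Nploc4. The Uggt2 site was in all 6 lists with osteogenic medium, centred on the copy each time, with 61.6 to 66.2 in the overexpression lists. The leading Ctrl site was a B1_Mm copy in intron 12 of 40 of Myo10, a myosin of filopodia (chr15:25736063-25736478), at 90.9 in Ctrl 1 and 91.8 in Ctrl 2 and in none of the other 6 lists. An RSINE1 copy in Npepps (69.6 and 73.6) was likewise in the 2 Ctrl lists alone. So was a site in Ankrd17 (81.3 and 84.5), centred on an RSINE1 copy in Ctrl 2 and beside it in Ctrl 1. The Cep350 (66.3 and 78.2) and Nf1 (53.1 and 72.4) sites also had peaks in GFP OE 1, and Cep350 in THOC5 OE 1.

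THOC5 OE and not GFP OE held 63 of 713 transposon sites (8.84%), against 8.21% of all sites, and GFP OE and not THOC5 OE held 16 (2.24%), against 1.39%. Of the 63, 36 were on a transposon in both THOC5 OE lists, and of the 16, 6 were in both GFP OE lists. The 4 lists differ in length, and cut to 2572 peaks each the counts were 15 and 14. The leading site was a B3A copy in intron 3 of 17 of Paxbp1, a PAX-binding protein (chr16:91036676-91037214), at 87.5 and 88.8 in THOC5 OE and in no other list. An Lx copy in intron 28 of 79 of Usp34, a deubiquitinase, had 86.9 in THOC5 OE 2 and 79.9 in Pi 1, and the peak of THOC5 OE 1 at that site, at 90.3, was centred beside it. A site in Specc1l followed, at 81.4 in THOC5 OE 1 on a MIR copy and at 83.5 in THOC5 OE 2 beside it, and in no other list. A site in Anapc1 had 80.3 and 81.8, both beside the L1ME3D copy on which the Ctrl 2 peak was centred. A B1_Mur2 copy in Kif5b, a kinesin heavy chain, had 74.6 and 78.7, on the copy in both lists. Peaks of Ctrl 1 (63.4) and Pi 1 (79.1) were on that copy too.

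Of the 5 leading sites of GFP OE that THOC5 OE lacked, 4 had a peak in a list without overexpression. A B4A copy in intron 5 of 15 of Itgb1, the integrin beta-1 chain (chr8:128713409-128713848), had 88.7 and 90.3 in Ctrl, 94 in Pi 2, and 71.5 in GFP OE 1, while the peak of GFP OE 2, at 75.2, was centred beside the copy. An L1M4 copy in intron 19 of 61 of Vps13b was in all 6 lists outside THOC5 OE, at 42.8 and 66 in Ctrl, 54.7 and 52.6 in Pi, and 73.3 and 64 in GFP OE. A Tigger19a copy in Slit3 was at 79.5 and 81.3 in Ctrl, 87.1 in Pi 2, and 55.4 and 62.2 in GFP OE. The Phip and Zmym2 sites stood at 58.5 and 59.4, and at 57.2 and 58.1, in GFP OE, both on a copy in GFP OE 2 and beside it in GFP OE 1.

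GFP OE and not Pi held 39 of 709 transposon sites (5.5%), against 5.13% of all sites, and Pi and not GFP OE held 15 (2.12%), against 3.93%. Of the 39, 21 were on a transposon in both GFP OE lists, and of the 15, 6 were in both Pi lists. Among the 39, sites in Fam193b (89.7 and 92 in GFP OE) and Afdn (83.9 and 82.5) led. A second Usp34 site (81.4 and 74.2) was also among the 5 leading sites. Each of these sites was centred on a copy in only 1 or 2 of the 5 lists that held it. At Fam193b (MIRb) and Usp34 (B3A) that list was THOC5 OE 2, and both GFP OE peaks were centred beside the copy. At Afdn (RSINE1) the GFP OE 1 peak was centred beside the copy. Peaks in Pcm1, a centriolar satellite protein (76.6 and 75.3), and Btaf1 (68.3 and 68.2) were on an ID_B1 copy in both GFP OE lists. They were also on it in both THOC5 OE lists and in Ctrl 2 (68.6 at Pcm1 and 48.8 at Btaf1). Pcm1 had a further peak beside the copy in Ctrl 1 (49.1). Fam193b also had a peak in Ctrl 1 (86.2), and Afdn (82.4) and Usp34 (80) had one in Ctrl 2.

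Across all 8 lists, 7 of 965 transposon sites (0.725%) were in the 4 overexpression lists and no other, against 0.874% of all sites, and 5 (0.518%) were in the 4 Ctrl and Pi lists and no other, against 0.283%. On a transposon in each of their 4 lists were 5 of the 7 and 3 of the 5. Of the 7, 4 held an LTR element, where 127 of all 965 transposon sites did. This was not tested, and the lowest score admitted was lower in the overexpression lists. The strongest was an intergenic RMER12B copy of ERVK at chr18:60308690-60309228, at 65.6 and 68.6 in GFP OE with 68.6 and 75.1 in THOC5 OE. An MTD copy of ERVL-MaLR in intron 19 of 64 of Dnah7b was at 8.52 and 6.26 in GFP OE with 8.98 and 20.8 in THOC5 OE. A B3 copy in Ddx60, a helicase of the antiviral response, was at 40.6 and 20.2, and at 36.1 and 32.1. Sites in Ascc3 and Stard9 made up the 5 strongest.

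The sites of the Ctrl and Pi lists alone included one of the strongest of all. A B1_Mus1 copy in intron 7 of 22 of Gabbr1, a subunit of the GABA-B receptor (chr17:37054296-37054735), stood at 91.1 and 94.1 in Ctrl and 92.1 and 94.6 in Pi, centred on the copy each time, and had no peak in the 4 overexpression lists. An L1MA7 copy in intron 25 of 56 of Trio (chr15:27830832-27831385) was at 68.5 and 79.5 in Ctrl and 81.9 and 80.5 in Pi, on the copy each time. The other 3 were in Eif4g3 (52.9 to 74.2, on the copy in 1 of 4 lists), Taf1 (34.8 to 54.2, on the copy in 3 of 4) and Smchd1, where an MTD copy in intron 46 of 47 ran from 0.519 to 45.5. Since no input was analysed here, loss of a peak and a lower level of the transcript cannot be told apart.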

How the data were processed

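RNA immunoprecipitated with THOC5 gave 8 peak lists. The submitters' processing notes name mm10 and the tools MACS2, Bowtie2, SAMtools and FastQC with no role, and peaks were annotated with HOMER's annotatePeaks.pl, per the file headers. Each deposited peak has a score from the authors' caller, whose scale and use of inputs the sources used here do not give, so it ranked peaks within a list. Library depth is unknown. The abbreviation and number in a list's header gave its sample.

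Peaks were joined into sites at an overlap of 1 base. Genes are those of the annotated transcript (1790 of 1793 matched to RefSeq). Differences between lists were tested by exact two-sided permutation, over 105 pairings or 70 splits of 4 against 4, and paired differences within lists by sign flips (256), with Benjamini-Hochberg adjustment at 0.05, in Python 3.11.15 with pandas 2.3.3. Joining and tests were tested on simulated data. Members and gene lists were chosen with earlier results of these data known. Named were: the 10 strongest sites of all 8 lists by their lowest percentile, 5 sites for each direction of a comparison, the 10 genes and names with most transposon peaks, young elements, families of at least 40 peaks and list members with a transposon peak; unnamed predicted genes were passed over. The strongest single peaks and intergenic sites were chosen after their values were seen. Alternatives were a score threshold, equal list length, another denominator, uncertain classes, stricter overlap, left-out lists and the replicate number as a block. Whether replicate numbers pair the lists was checked: deviations from condition means correlated at -0.201 to 0.269 between conditions.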

Additional observations from a re-analysis of the deposited data

How the results depend on the processing

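The transposon share did not pass the threshold across conditions or between overexpression and none under any alternative tried. The 3 comparisons of 2 lists against 2 cannot pass it, so only their values are given. Leaving out 1 list gave 0.245 to 0.739 of variance between conditions, 0.722 to 2.76 points for Pi minus Ctrl, -1.54 to 1.28 for THOC5 OE minus GFP OE, -1.13 to 1.7 for GFP OE minus Pi, and 0.595 to 1.72 for overexpression minus none. With the replicate number as a block, the share across conditions had exact p = 0.583 (0.434 of variance), and the LTR share (4.97 points) had exact p = 0.0556, where it was 0.0286 without the block. Whether the numbers pair the lists was not settled. Deviations from condition means correlated at 0.0937 for Ctrl with Pi and 0.269 for GFP OE with THOC5 OE, and below 0 for the other pairs of conditions. The block changed no other call. In the test across conditions, no class and no family passed after adjustment in the settings run. The adjusted tests of classes and families by overexpression were run as reported only.

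The LTR share of overexpression minus none was 2.87 points at the common score floor, 3.01 points with lists cut to 2572 peaks, and 4.03 to 6.02 without 1 list (exact p = 0.0286 to 0.0571). The score percentile of all transposon peaks turned to -5.37 points against all other peaks, and that of SINE peaks to -2.82. For LTR peaks it was -1.85 points in cut lists and -13.2 to -10.9 without 1 list. For SINE peaks it was 2.36 points in cut lists, 3.04 with 1 peak a site and no exon peaks, and 3.05 to 4.2 without 1 list. The SINE call was lost in each of these but the one without Pi 1. The LTR call was lost without any 1 list other than Pi 1, at adjusted exact p = 0.0625, the lowest that 7 lists allow a class that leads alone. The intergenic difference was 0.816 points in cut lists, and the intron 1 difference turned to 0.171 points far from start sites. Causes were not tested.

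Peaks above the median score recurred in 86.9% of cases, and 76.1% to 79.9% of transposon peaks recurred without 1 list. Site counts followed the number of lists asked for. Above the median score, sites in all 8 lists numbered 15, Pi not Ctrl 5, Ctrl not Pi 8, THOC5 OE not GFP OE 13, GFP OE not THOC5 OE 4, GFP OE not Pi 18, Pi not GFP OE 5, and Ctrl and Pi alone 3. In cut lists THOC5 OE not GFP OE numbered 15, and Ctrl and Pi alone 3. Without 1 list these ran from 24 to 31 for sites in all lists left, 21 to 122 for Pi not Ctrl, 46 to 143 for Ctrl not Pi, 106 to 151 for THOC5 OE not GFP OE, 25 to 102 for GFP OE not THOC5 OE, 54 to 153 for GFP OE not Pi, 32 to 129 for Pi not GFP OE, 7 to 22 for overexpression alone and 5 to 12 for Ctrl and Pi alone. Depth and multiply placed reads limit what a missing peak shows.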
